A study of Homo sapiens with 6 samples.

Results

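The 33 genes described here act in mitosis and in the G2 phase that precedes it, and were followed through culture of a human colorectal cancer line in collagen. They were chosen as a list of gene symbols, and each was represented by the brightest Affymetrix probe set (a group of short probes for 1 transcript) that carries its symbol alone. All 33 were found among 19775 genes on the array, and all 33 passed the filter on dim genes, as did 12317 of all genes. HCA-7 is a colorectal cancer cell line that forms colonies of distinct shape in type 1 collagen. Colonies of both shapes were isolated and regrown in collagen: SC1 forms spiky colonies and CC3 cystic ones, and these are called the spiky and the cystic clone here. The cell-containing collagen layer was taken for total RNA at day 5, 10 and 15, with 1 U133 Plus 2.0 array per clone and day, so that each clone has 3 arrays and each day has 2. The labels name neither a treatment nor an untreated control, and both clones come from the same parent line.

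A cell enters mitosis when CDK1, a protein kinase, binds B-type cyclins and becomes active. Other kinases, motor proteins and kinetochore proteins then build the spindle and attach chromosomes to it, and a checkpoint delays separation until every chromosome is attached. The anaphase promoting complex afterwards marks cyclin B and securin for destruction, and the cell divides. Most of these genes are transcribed in waves that peak in G2 and mitosis, so their RNA is low in populations with few dividing cells, and MKI67 is the standard marker of proliferating colorectal tumour cells. Many of their promoters carry a cell cycle genes homology region, abbreviated CHR, which MuvB complexes bind, and CCAAT boxes, which the factor NF-Y binds.

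The promoters of 4 of these genes are shown because CCAAT matches are in all of them and CHR matches in 3, and because the genes differ in how they behaved at the end of culture. KIF23 had the largest fall at day 15 among genes with both elements and CENPA the smallest difference, while CCNB1 and CDC20 encode cyclin B1 and the activator of the anaphase promoting complex. Each line gives the 250 bases before the annotated start, 5′ to 3′ on the gene's strand, from RefSeq (GRCh38.p14). Capitals mark matches, on either strand, to the CHR letters TTTGAA and to the CCAAT letters, which read TTCAAA and ATTGG when they lie on the other strand. The regions are chr15:69414099-69414348 for KIF23, chr2:26785806-26786055 for CENPA, chr5:69166900-69167149 for CCNB1 and chr1:43358731-43358980 for CDC20, all on the plus strand.
KIF23: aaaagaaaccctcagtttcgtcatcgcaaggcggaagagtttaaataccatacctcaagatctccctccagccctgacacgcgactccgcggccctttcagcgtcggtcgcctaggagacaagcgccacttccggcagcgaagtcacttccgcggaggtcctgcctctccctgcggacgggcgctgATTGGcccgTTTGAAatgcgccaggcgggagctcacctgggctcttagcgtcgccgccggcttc
CENPA: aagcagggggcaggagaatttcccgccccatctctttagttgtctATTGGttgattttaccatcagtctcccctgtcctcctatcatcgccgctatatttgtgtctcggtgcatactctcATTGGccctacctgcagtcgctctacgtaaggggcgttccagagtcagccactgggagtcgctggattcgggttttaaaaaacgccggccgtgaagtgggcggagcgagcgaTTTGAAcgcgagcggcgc
CCNB1: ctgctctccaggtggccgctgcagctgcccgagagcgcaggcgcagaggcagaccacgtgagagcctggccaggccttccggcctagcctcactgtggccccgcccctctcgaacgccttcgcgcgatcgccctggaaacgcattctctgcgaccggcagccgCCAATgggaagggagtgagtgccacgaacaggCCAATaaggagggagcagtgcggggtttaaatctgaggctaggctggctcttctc
CDC20: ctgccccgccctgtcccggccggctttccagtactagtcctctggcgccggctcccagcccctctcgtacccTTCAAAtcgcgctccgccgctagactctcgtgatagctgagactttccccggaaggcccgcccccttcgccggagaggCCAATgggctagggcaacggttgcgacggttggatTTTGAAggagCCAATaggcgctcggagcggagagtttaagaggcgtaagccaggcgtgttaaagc
In KIF23 the CCAAT match starts 64 bases and the CHR match 55 bases before the start of the gene. CENPA holds CCAAT matches at 205 and 130 bases and a CHR match at 18 bases. CCNB1 holds CCAAT matches at 87 and 55 bases, and the letters TTTGAA are not in its window. CDC20 holds CHR matches at 178 and 65 bases and CCAAT matches at 100 and 55 bases.

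The promoter table held 27 of the 33 genes; AURKA, BIRC5, FOXM1, TPX2, TTK and UBE2C are the others. The CHR letters were present in 15 of the 27 windows (55.6%), against 13.3% of all 35116 windows of the same length in the table. A CCAAT match was present in 22 of the 27 (81.5%), against 32.0% of all windows, and 16 (59.3%) held more than 1, against 9.53% of all. Both elements together were present in 13 (48.1%), against 4.69% of all. An E2F-type match, TTCCCGC or TTGGCGC on either strand, was present in 5 (18.5%), against 7.81% of all. Promoters of 36 genes of DNA replication and the G1/S step showed another makeup: 1 held the CHR letters (2.78%), 18 a CCAAT match (50.0%) and 20 an E2F-type match (55.6%). The reverse CCAAT letters ATTGG and TTGGCGC can share bases, so 1 stretch can count for both. A match describes the sequence and is not shown to be a bound site.

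**Figure D1:**
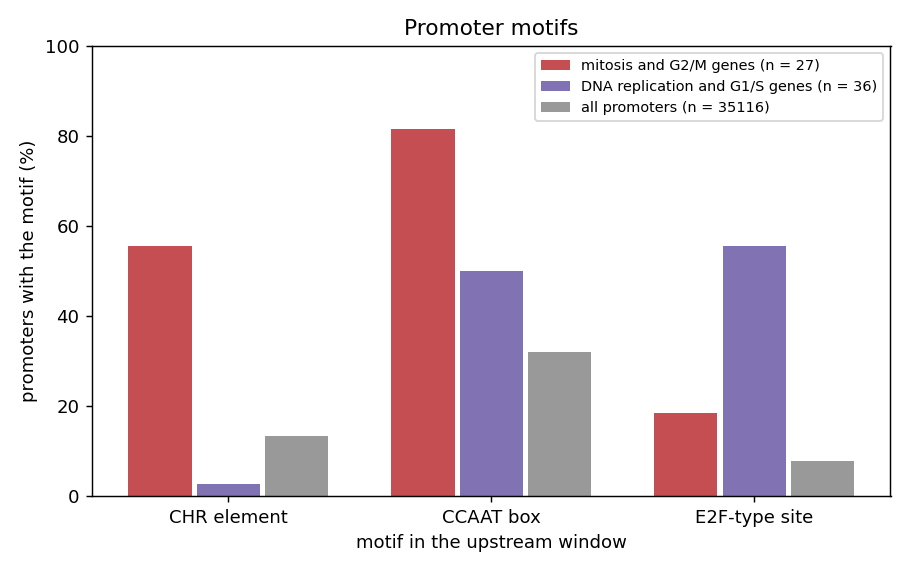
Share of promoter windows (vertical axis, percent of windows, from 0) that hold each motif on either strand in the 250 bases before the annotated start, for 27 mitosis and G2/M genes, 36 DNA replication and G1/S genes and all 35116 windows. CHR and CCAAT matches are most frequent in the mitosis and G2/M genes (55.6% and 81.5%), and E2F-type matches in the G1/S genes (55.6%).

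All values are on the log2 scale, so a difference of 1 is a doubling of signal, and levels are compared between arrays for a gene but never between genes. Array medians lay between 5.18 and 5.34. Of 12 colon epithelial markers 7 reached a mean of 5, among them EPCAM at 11.8, KRT18 at 12.4 and CDH1 at 10.3, while KRT20, CDH17, LGALS4, CDX1 and CDX2 did not. Of 12 fibroblast markers 2 reached it, COL1A1 and FBLN1, as did 3 of 9 leukocyte and 1 of 6 endothelial markers. The ACTB 3′ probe set exceeded its 5′ probe set, a sign of shortened RNA, by 2.73, 2.74 and 3.10 in the spiky clone at day 5, 10 and 15, and by 2.83, 3.18 and 3.28 in the cystic clone. Each shape is 1 clone, so shape and clone cannot be told apart. Nothing in the labels says that the arrays come from separate cultures, and p-values measure the spread between these arrays only.

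The study sampled the colonies over time, and most of the mitotic genes were lower at day 15 than at day 10. In that late step 28 of the 33 genes fell and 0 rose, against 14.0% of all genes tested that fell and 8.66% that rose (limma, Benjamini-Hochberg adjusted p under 0.05). An unadjusted p under 0.05 was reached by 29 of the 33, against 36.4% of all genes. The 5 genes that did not pass were TTK, BUB1, TOP2A, CDC25C and CENPA. The median difference over the 33 genes was -0.56, against -0.01 over all genes, and the 28 genes that fell did so by a factor of 1.32 to 1.92. The clones had similar medians in the late step, -0.57 in the spiky and -0.55 in the cystic clone. Day 15 was below day 10 in both clones for 31 of the 33 genes, against 38.2% of all genes. Both day 15 arrays lay below the other 4 arrays for 28 of the 33, against 25.2% of all genes. In bulk RNA such as this, fewer dividing cells and less RNA per dividing cell cannot be told apart.

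**Figure D2:**
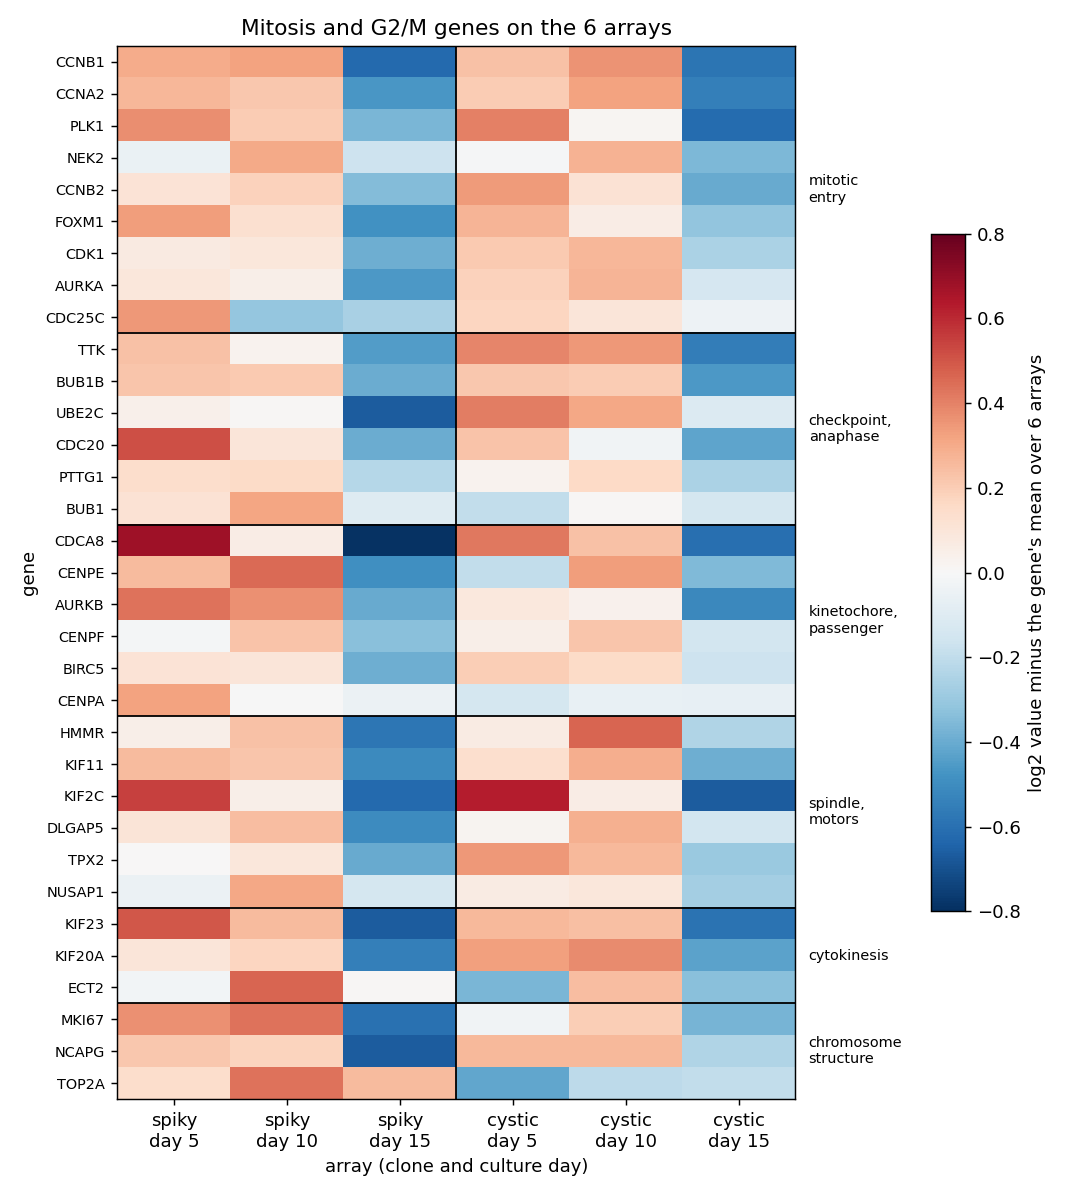
Log2 value minus the gene's mean over the 6 arrays (colour scale) for the 33 genes in rows, grouped by role, on the arrays of the spiky and then the cystic clone at day 5, 10 and 15. The day 15 columns are the lowest of each clone for most genes, while TOP2A, CDC25C, CENPA, BUB1 and ECT2 are the genes whose day 15 arrays are not both below the other 4.

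Among the genes of mitotic entry 8 of 9 fell in the late step, with a median of -0.53. Cyclin B1 (CCNB1), the partner of CDK1, fell most of all 33 genes. Its values were 10.75, 10.77 and 9.83 in the spiky clone at day 5, 10 and 15, and 10.68, 10.81 and 9.86 in the cystic clone. The 4 arrays of day 5 and 10 lay close together and both day 15 arrays were far below them. The late difference was -0.94 ± 0.10 (SE, 2 arrays a day), a 1.92-fold fall with an adjusted p of 0.00107 in limma. Cyclin A2 (CCNA2), which acts in S phase and G2, showed the same shape. It measured 10.16, 10.11 and 9.43 in the spiky clone and 10.10, 10.22 and 9.35 in the cystic clone over the 3 days. The fall was 1.71-fold (-0.77 ± 0.11, adjusted p = 0.00274).

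CDK1 itself had 10.02, 10.03 and 9.56 in the spiky clone and 10.16, 10.21 and 9.69 in the cystic clone over the 3 days. It fell by a factor of 1.41 (adjusted p = 0.0118). Cyclin B2 (CCNB2) fell 1.44-fold (adjusted p = 0.0283). The mitotic kinases AURKA, PLK1 and NEK2 act at the centrosome, among other sites, and fell by factors of 1.37, 1.51 and 1.47. PLK1 passed narrowly, with an adjusted p of 0.0484 and values of 7.58, 7.41 and 6.84 in the spiky and 7.61, 7.23 and 6.60 in the cystic clone. FOXM1, a transcription factor that activates many of the other genes, had 8.79, 8.59 and 7.97 in the spiky clone and 8.73, 8.52 and 8.14 in the cystic clone. Its 1.41-fold fall had an adjusted p of 0.0451. CDC25C, a phosphatase that activates CDK1, was the gene of this group that did not pass. It measured 7.52, 6.87 and 6.92 in the spiky clone and 7.35, 7.27 and 7.14 in the cystic clone. Day 5 was the highest array of each clone, and the spiky values of day 10 and 15 lay below all cystic ones.

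In the spindle checkpoint and the control of anaphase 4 of 6 genes fell, with a median of -0.49. BUB1B, a checkpoint protein that inhibits CDC20, was nearly equal at day 5 and 10 and then fell 1.56-fold (adjusted p = 0.00952). It had 9.24, 9.24 and 8.63 in the spiky clone and 9.24, 9.23 and 8.56 in the cystic clone. UBE2C, a ubiquitin-conjugating enzyme that works with the anaphase promoting complex, fell 1.46-fold. Securin (PTTG1), which holds the cohesin-cleaving protease inactive, fell 1.32-fold, the smallest factor among the genes that passed. CDC20, which activates the anaphase promoting complex, fell 1.36-fold (adjusted p = 0.0181).

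TTK, the kinase that starts checkpoint signalling, missed the threshold in the late step with -0.69 ± 0.22 and an adjusted p of 0.0527. Its values of 6.08, 5.87 and 5.40 in the spiky and 6.24, 6.19 and 5.29 in the cystic clone put both day 15 arrays below the other 4. BUB1, a checkpoint kinase at the kinetochore, had 9.32, 9.52 and 9.10 in the spiky clone and 9.01, 9.22 and 9.07 in the cystic clone. Both day 15 arrays lay below both day 10 arrays, and day 5 overlapped with each. The late difference of -0.28 had an adjusted p of 0.163.

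Among genes of the kinetochore and the chromosome passenger complex 5 of 6 fell, with a median of -0.56. Borealin (CDCA8), a passenger subunit, had 7.63, 7.01 and 6.16 in the spiky clone and 7.37, 7.18 and 6.35 in the cystic clone. It fell 1.79-fold in the late step (adjusted p = 0.0192). The passenger kinase AURKB fell 1.58-fold and the passenger subunit survivin (BIRC5), also an inhibitor of apoptosis, 1.32-fold. CENPE, a kinetochore motor that moves chromosomes to the spindle centre, had 9.47, 9.67 and 8.73 in the spiky clone and 9.02, 9.55 and 8.86 in the cystic clone. It was highest at day 10 in both clones and fell 1.76-fold afterwards (adjusted p = 0.00813). CENPF, a kinetochore protein that accumulates in G2, fell 1.38-fold. CENPA, the histone that marks the centromere, did not pass at any step. It measured 6.82, 6.50 and 6.45 in the spiky clone and 6.36, 6.44 and 6.43 in the cystic clone, a range in which the days overlap.

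All 6 genes of the spindle and its motors fell, with a median of -0.64. The motor KIF11, which pushes the spindle poles apart, had 8.76, 8.72 and 8.0 in the spiky clone and 8.64, 8.80 and 8.11 in the cystic clone. It fell 1.63-fold (adjusted p = 0.0111). KIF2C, which takes microtubules apart to correct wrong attachments, fell 1.62-fold. HMMR and DLGAP5, which organise spindle microtubules, fell 1.69-fold and 1.51-fold. TPX2, which activates AURKA on the spindle, fell 1.44-fold, and NUSAP1, which bundles spindle microtubules, 1.33-fold (adjusted p = 0.0434).

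All 3 genes of cytokinesis fell. The central spindle motor KIF23 had 7.68, 7.44 and 6.52 in the spiky clone and 7.44, 7.42 and 6.59 in the cystic clone, and fell 1.83-fold (adjusted p = 0.0121). KIF20A, another motor of the central spindle, fell 1.70-fold (adjusted p = 0.0039). ECT2, which activates RhoA at the division site, fell 1.43-fold, but in its brightest probe set day 15 was near day 5, as described further on.

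Of 3 genes of chromosome structure 2 fell. MKI67, which coats mitotic chromosomes, had 10.11, 10.17 and 9.14 in the spiky clone and 9.71, 9.94 and 9.37 in the cystic clone. Its fall was 1.74-fold (-0.80 ± 0.15, adjusted p = 0.00778), with -1.03 in the spiky clone and -0.57 in the cystic clone. The condensin subunit NCAPG fell 1.59-fold (adjusted p = 0.00405). Topoisomerase II alpha (TOP2A), which untangles sister DNA, had 11.11, 11.41 and 11.23 in the spiky clone and 10.56, 10.76 and 10.78 in the cystic clone. The day 15 array lay between those of day 5 and day 10 in the spiky clone and next to that of day 10 in the cystic clone. The late difference of -0.08 ± 0.09 had an adjusted p of 0.557.

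The count of 28 rested on each of the day 10 arrays, since it was 5 without the spiky day 10 array and 5 without the cystic one, and on the model (12 without the intensity trend in the variances, 2 without the clone as a term). The median difference of the 33 genes was -0.56 without the spiky day 10 array and -0.61 without the cystic one, and calls over all genes numbered 1019 and 1163 there, against 1719 lower and 1067 higher with all 6 arrays. COL1A1 and the ACTB 3′ to 5′ difference were highest at day 15 in each clone, with COL1A1 at 6.41, 6.40 and 7.54 in the spiky clone and 6.50, 7.02 and 8.12 in the cystic clone, and the summed signal of the 12 fibroblast markers at 8.60 and 8.91 in the spiky and the cystic day 15 array, against 8.09 to 8.29 in the other 4. COL1A1 carried that sum, as 10 of the 12 markers had means under 5 and FBLN1 had 5.96, 6.19 and 6.29 in the spiky clone and 6.04, 6.11 and 6.13 in the cystic clone. The summed signal of the 6 endothelial markers was also highest at day 15, at 7.58 and 7.50 in the spiky and the cystic array, against 7.08 to 7.34 in the other 4. VWF, PECAM1 and CDH5 were highest at day 15 in each clone, with means under 5. CLDN5, the 1 marker above it, had 6.42, 6.32 and 6.31 in the spiky clone and 6.41, 6.15 and 6.35 in the cystic clone. The part of these markers and of the ACTB difference in the result was not tested.

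Between day 5 and day 10 the differences had mixed signs. In limma 0 of 33 passed in this early step, against 0.0162% of all genes, and 6 had an unadjusted p under 0.05, against 13.5% of all genes. The median difference was 0.02, against -0.10 over all genes, with -0.01 in the spiky and 0.05 in the cystic clone. Day 10 was above day 5 in both clones for 14 genes (19.6% of all genes) and below it in both for 13 (45.8% of all genes). The other 6, AURKA, CCNA2, CCNB2, CENPA, KIF11 and TPX2, differed in sign between the clones.

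The 14 genes higher at day 10 in both clones were BUB1, CCNB1, CDK1, CENPE, CENPF, DLGAP5, ECT2, HMMR, KIF20A, MKI67, NEK2, NUSAP1, PTTG1 and TOP2A. For 9 of them both day 10 arrays were the highest of the 6, but this count was not made over all genes, so it has no background share. ECT2 showed the largest early difference, with 9.54, 10.02 and 9.57 in the spiky clone and 9.19, 9.80 and 9.22 in the cystic clone at day 5, 10 and 15. In this brightest probe set day 10 stood out in each clone, and day 5 and 15 were nearly equal. Its early difference of 0.55 ± 0.12 had an adjusted p of 0.166 in limma, the lowest of the 33 genes in that step. Another bright ECT2 probe set had early differences of only -0.04 in the spiky and 0.06 in the cystic clone. A further one had 0.16 and 0.45.

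The 13 genes lower at day 10 in both clones were AURKB, BIRC5, BUB1B, CDC20, CDC25C, CDCA8, FOXM1, KIF23, KIF2C, NCAPG, PLK1, TTK and UBE2C. KIF2C showed the largest such difference (-0.53 ± 0.14, adjusted p = 0.218). It had 9.14, 8.64 and 7.97 in the spiky clone and 9.22, 8.65 and 7.93 in the cystic clone. In this brightest probe set each day was below the one before. The differences were -0.50 and then -0.66 in the spiky clone and -0.57 and then -0.73 in the cystic clone. CDC20 had the same order of days, with 10.86, 10.43 and 9.94 in the spiky clone and 10.57, 10.31 and 9.92 in the cystic clone. KIF2C, CDC20 and FOXM1 were the genes lower at day 10 by over 0.2 in both clones. The median early difference over the whole mitotic list was 0.02 without the spiky day 15 array and 0.02 without the cystic one. Over all genes it was -0.10 in each refit, and these medians were the same as with all arrays. Such a refit leaves 1 array at day 15, so its calls are not counted.

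**Figure D3:**
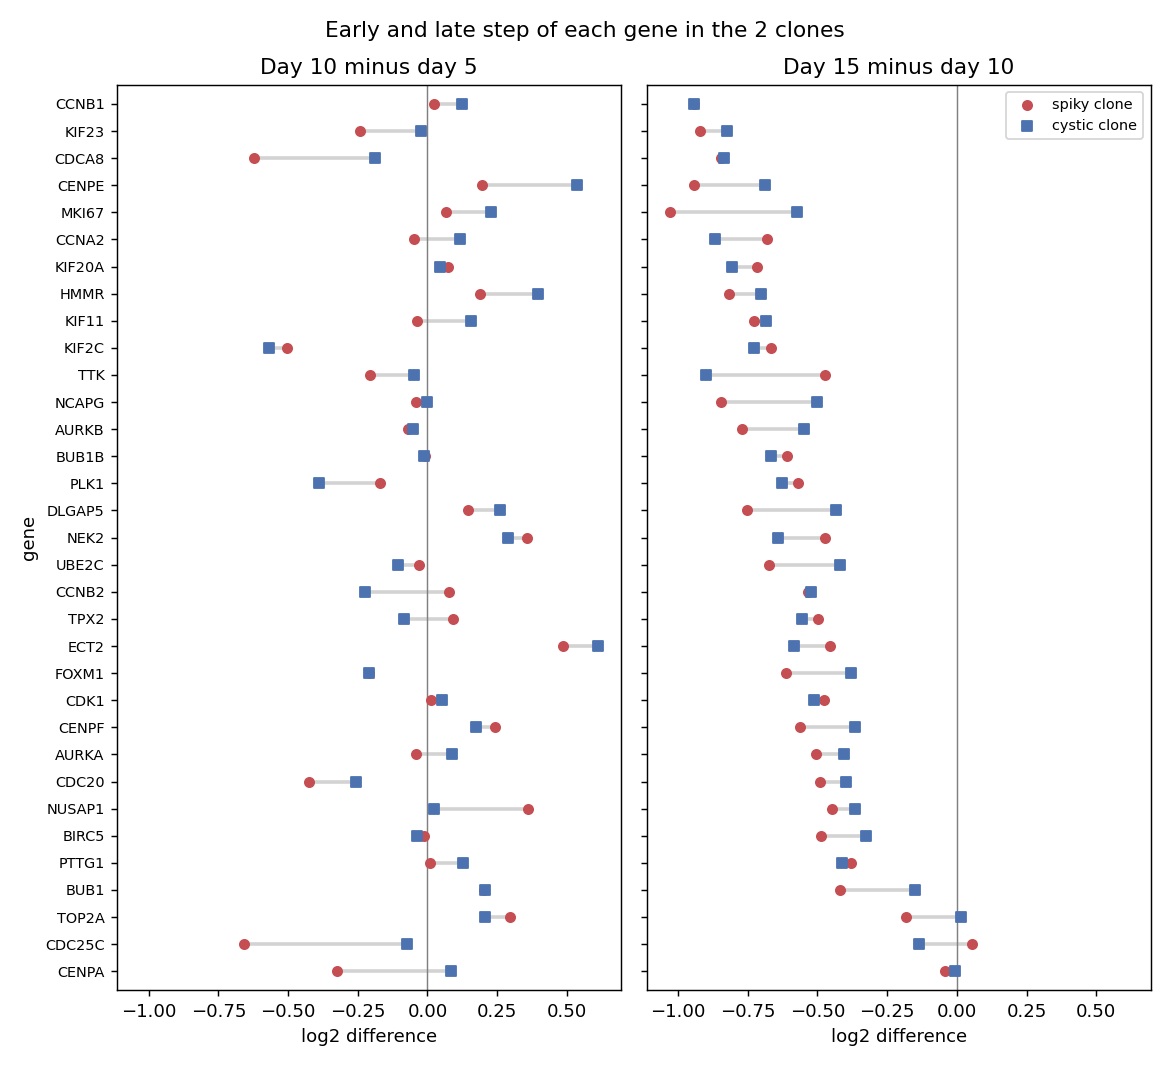
Log2 difference of each gene within a clone for the early step (day 10 minus day 5, left) and the late step (day 15 minus day 10, right), with circles for the spiky and squares for the cystic clone, genes ordered by the late difference. Early differences lie on both sides of 0, and late differences lie below 0 in both clones for 31 of 33 genes.

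The late difference was more negative than the early one in both clones for 31 of the 33 genes, in the spiky clone for 31 and in the cystic clone for 33. CDC25C and CENPA were the exceptions, both in the spiky clone. These counts were not made over all genes, and both differences use the same day 10 array with opposite sign. The median of late minus early was -0.56, against 0.07 over all genes. The test of this difference has a larger error than either step: in limma it called 1 of 33 genes lower and 0 higher, against 0.390% and 0.666% of all genes, and 22 had an unadjusted p under 0.05, against 20.3% of all genes. The called gene was CCNB1, with -1.02 ± 0.17 and an adjusted p of 0.0392. CENPE, ECT2 and HMMR had estimates of -1.18, -1.07 and -1.05 that did not pass. The count was 0 without the filter on dim genes. It also depended on which single array was left out, as did the calls over all genes, since such a refit leaves 1 array at a day. The median of late minus early then lay between -0.62 and -0.54 for the 33 genes, and between -0.02 and 0.13 over all genes.

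Over the whole culture 22 of the 33 genes fell and 0 rose at day 15 against day 5, while 21.9% of all genes fell and 10.4% rose (limma). An unadjusted p under 0.05 was reached by 26 genes, against 43.2% of all genes. The median difference was -0.60, against -0.11 over all genes, with -0.63 in the spiky and -0.50 in the cystic clone. The falls ran between 1.25-fold and 2.37-fold. CDCA8 (2.37-fold, adjusted p = 0.00269), KIF2C (2.35-fold, adjusted p = 0.000785) and KIF23 (2.01-fold, adjusted p = 0.00467) fell furthest. PLK1 and CCNB1 followed with 1.84-fold and 1.83-fold falls. TTK passed here, with a 1.76-fold fall and an adjusted p of 0.0209.

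The calls of both comparisons overlapped in 21 genes. A further 7, CENPE, CENPF, NUSAP1, HMMR, DLGAP5, NEK2 and ECT2, fell against day 10 and did not pass against day 5. In the brightest probe set day 10 was above day 5 in both clones for each of them. A day 10 mean above that of day 5 follows from how the 7 were picked, as both comparisons have the same error per gene. It is therefore no separate finding about them. HMMR, for example, had 7.89, 8.08 and 7.26 in the spiky clone and 7.91, 8.31 and 7.60 in the cystic clone. Its difference at day 15 against day 5 was -0.47 ± 0.17 (adjusted p = 0.0652). NEK2 had 9.19, 9.55 and 9.07 in the spiky clone and 9.23, 9.52 and 8.88 in the cystic clone, and its difference against day 5 was -0.23 (adjusted p = 0.206). TOP2A, CDC25C, BUB1 and CENPA passed in neither comparison. The group of 7 depended in part on the probe set. Another bright probe set was below day 5 at day 10 in the spiky and the cystic clone for NEK2 (-0.11 and -0.08) and NUSAP1 (-0.07 and -0.17). With those probe sets both genes passed in limma as lower at day 15 against day 5 (-0.53 and -0.59). The other bright probe sets of CENPF and HMMR kept day 10 above day 5 in both clones. For ECT2 another bright probe set differed in sign between the spiky and the cystic clone (-0.04 and 0.06), and a further one kept that order (0.16 and 0.45).

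By role, 7 of 9 genes of mitotic entry fell against day 5, 5 of 6 of the checkpoint and anaphase, 3 of 6 of the kinetochore and passenger complex, 3 of 6 of the spindle, 2 of 3 of cytokinesis and 2 of 3 of chromosome structure. The count of 22 was 4 without the spiky day 5 array and 12 without the clone as a term, and TOP2A passed as higher with the mean of its probe sets (0.54) and with cyclic loess scaling (0.32). The TOP2A mean includes a dim probe set (mean 4.55), which differed by 1.42 in the spiky and 1.71 in the cystic clone. The other bright TOP2A probe set gave -0.04 and -0.22. Day 15 against day 5 shares its day 15 arrays with the late step, so the counts are not independent.

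Few of these genes separated the clones. In limma TOP2A was higher and UBE2C lower in the spiky clone, and 31 of 33 genes did not pass, while 3.65% of all genes were higher and 7.74% lower. The median difference was -0.01, against -0.03 over all genes, and 5 genes had an unadjusted p under 0.05, against 24.4% of all genes. The sign was the same at all 3 days for 15 of 33 genes, against 45.0% of all genes. TOP2A exceeded the cystic clone by 0.55, 0.64 and 0.45 at day 5, 10 and 15, so the clones did not overlap (0.55 ± 0.07, adjusted p = 0.00224). UBE2C had 9.74, 9.71 and 9.04 in the spiky clone and 10.11, 10.01 and 9.59 in the cystic clone. Its differences were -0.37, -0.30 and -0.55 at day 5, 10 and 15 (-0.41 ± 0.10, adjusted p = 0.0289). UBE2C no longer passed with arrays centred on their medians (-0.35), without the filter on dim genes or without any single day 5 or day 10 array, and TOP2A no longer passed with the mean of its probe sets (0.22). The dim TOP2A probe set enters that mean too. Neither TOP2A nor UBE2C passed without the intensity trend or without culture day as a block.

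Whether the clones differed in their change over culture was tested as a difference in slope. In limma no gene of the 33 passed (0 of 33, against 0.593% of all genes), and 3 had an unadjusted p under 0.05, against 11.2% of all genes. The median slope difference was -0.14 per 10 days, against -0.02 over all genes. The largest was that of MKI67, at -0.62 per 10 days (adjusted p = 0.244): spiky minus cystic was 0.39 at day 5, 0.23 at day 10 and -0.22 at day 15. CENPE had 0.45, 0.11 and -0.14. The late fall was larger in the spiky than the cystic clone for 20 of 33 genes, against 41.9% of all genes. This model left 1 residual degree of freedom, and in simulated data 20.3% of its calls were false, against 3.30% to 5.07% for the other comparisons.

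Of the 33 genes 18 had further probe sets with a mean of at least 5, 28 in all. Day 15 was below day 10 for 27 of these 28, with an AURKB probe set as the exception, and below day 5 for 26, with AURKB and CDC25C probe sets as the exceptions. Probe sets of 1 gene differed in size and at times in sign. For BUB1 the brightest gave -0.08 at day 15 against day 5, and its others -0.61 to -0.02. For ECT2 it gave 0.03, and the others -0.68 to -0.28. For TOP2A it gave 0.17, and the other one -0.13. For CDK1 it gave -0.46, and the others -0.90 to -0.50. For KIF2C it gave -1.23, and the other one -0.45. In 12 genes another probe set lay further below day 5 than the brightest one. The chosen probe sets of CENPA, FOXM1 and PTTG1 are of a type that can also detect related transcripts.

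**Figure D4:**
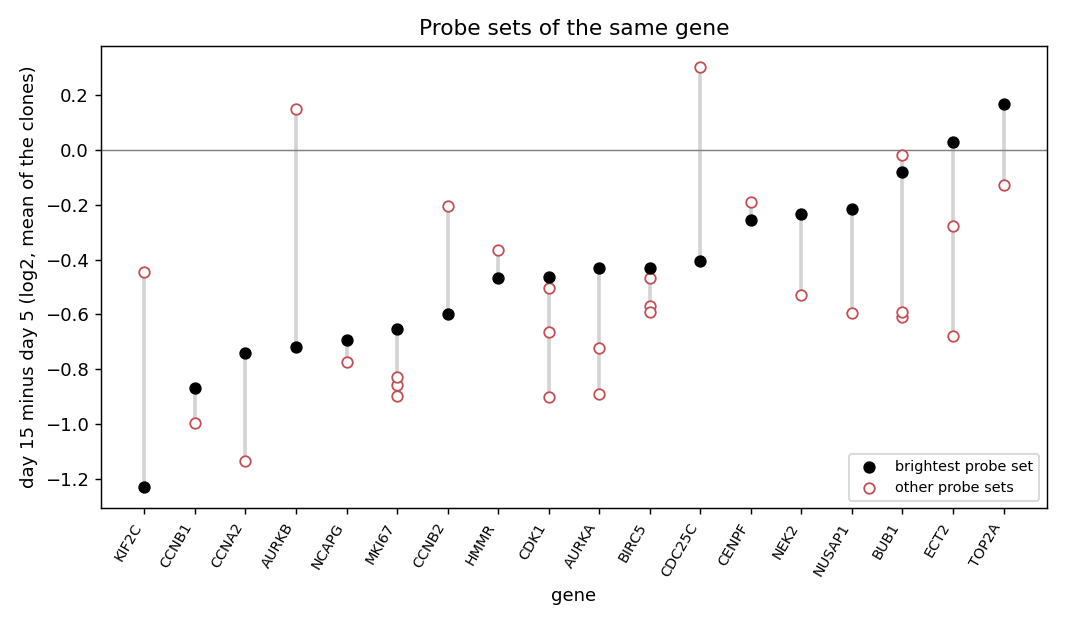
Day 15 minus day 5 (vertical axis, log2, mean of both clones) for the 18 genes with more than 1 probe set of mean log2 at least 5, with the brightest probe set as a filled and the others as open circles. Of 28 other probe sets 26 lie below 0, including those of ECT2 and TOP2A, whose brightest probe set lies above 0.

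Other genes of cell division were also more often lower at day 15 than higher. Lists for the kinetochore and checkpoint, the spindle and cytokinesis, condensation and cohesion, the anaphase promoting complex and G2/M regulation held 115 tested genes beside the 33. In the late step 73 of them fell, 0 rose and 42 did not pass, so that 63.5% fell, against 14.0% of all genes. Their median was -0.60, and in the early step 0 passed in limma, with a median of 0.01. At day 15 against day 5, 70 fell (60.9%, against 21.9% of all genes), and NUMA1 and RAD21 rose. The kinetochore and checkpoint list had 27 of 36 genes lower in the late step, and SKA3, which couples kinetochores to microtubules, fell furthest of those named. It had 7.02, 6.53 and 5.08 in the spiky clone and 7.66, 7.67 and 6.08 in the cystic clone (late difference -1.52 ± 0.21, adjusted p = 0.00241). In the spindle list 19 of 27 fell, among them CEP55, needed for abscission (-0.93, adjusted p = 0.0013). NUMA1, which anchors spindle poles, stood apart, with 7.21, 8.03 and 8.30 in the spiky clone and 7.03, 8.0 and 8.24 in the cystic clone.

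Of the condensation and cohesion genes 11 of 20 fell in the late step, CDCA5 (sororin, which stabilises cohesion) by -0.85. The cohesin subunit RAD21 had a late difference of 0.03, and its 0.39 at day 15 against day 5 passed (adjusted p = 0.0149). Of the anaphase promoting complex and its regulators 5 of 13 fell, with a median of -0.28. Among G2/M regulators 11 of 19 fell, and TRIP13, which remodels the checkpoint complex, had 8.99, 8.82 and 7.40 in the spiky clone and 8.89, 8.86 and 7.48 in the cystic clone (-1.40 ± 0.15, adjusted p = 0.00122). Both day 15 arrays were far below the other 4. Genes of another phase fell too: of 40 genes of DNA replication and the G1/S step 31 fell and 1 rose, with a median of -0.71, while 14.0% of all genes fell and 8.66% rose. RRM2, a subunit of ribonucleotide reductase, had a late difference of -0.95, and the exception was GINS4, a replication fork subunit, with 0.78 (adjusted p = 0.0488).

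Regulators that repress the cell cycle showed another pattern. Of 18 cell cycle inhibitors and antiproliferative genes 8 rose and 1 fell in the late step, with a median of 0.38, while 8.66% of all genes rose and 14.0% fell. At day 15 against day 5, 7 rose and 2 fell, KLF4 and KLF6, with a median of 0.02, while 10.4% of all genes rose and 21.9% fell. CDKN1A encodes p21, an inhibitor of cyclin-dependent kinases. It had 9.39, 9.08 and 11.54 in the spiky clone and 10.50, 10.10 and 11.18 in the cystic clone, so both day 15 arrays were above the other 4 (3.40-fold, 1.77 ± 0.29, adjusted p = 0.00438). GADD45A, a stress gene whose protein inhibits CDK1, had 9.77, 9.31 and 11.36 in the spiky clone and 9.73, 9.86 and 11.27 in the cystic clone. It rose 3.32-fold (adjusted p = 0.000698). CCNG2, an atypical cyclin linked to cell cycle arrest, rose 2.60-fold, and TP53INP1, a stress-induced p53 target, 2.87-fold. KLF6, a transcription factor with antiproliferative activity, fell by 0.57.

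Of 13 tested genes of the DREAM and MuvB complexes, which bind CHR promoters, and their partners, 4 fell and 0 rose in the late step, while 14.0% of all genes fell and 8.66% rose. LIN9 and LIN52, subunits of the MuvB core, fell by 1.50 and 1.11, RBL1 (p107) by 0.78 and TFDP1, a partner of E2F factors, by 0.48. LIN9 was dim and uneven between the clones, with 6.69, 6.76 and 5.84 in the spiky and 5.90, 6.74 and 4.65 in the cystic clone. Its cystic day 15 value lay under 5, the level of the filter on means. MYBL2, which joins MuvB to activate mitotic genes, had 7.41, 7.06 and 6.57 in the spiky clone and 7.20, 6.91 and 6.76 in the cystic clone. Its late difference of -0.32 did not pass (adjusted p = 0.28), and its difference against day 5 did (-0.64, adjusted p = 0.0372). The late step had similar medians with and without the letters TTTGAA in the promoter window. The median was -0.60 for the 15 genes with them and -0.61 for the 12 without. Only these letters before the annotated start were searched, so a CHR with other letters or another position counts as absent. This split therefore does not sort genes by whether a CHR is present, and the part of the CHR in the fall was not tested.

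**Figure D5:**
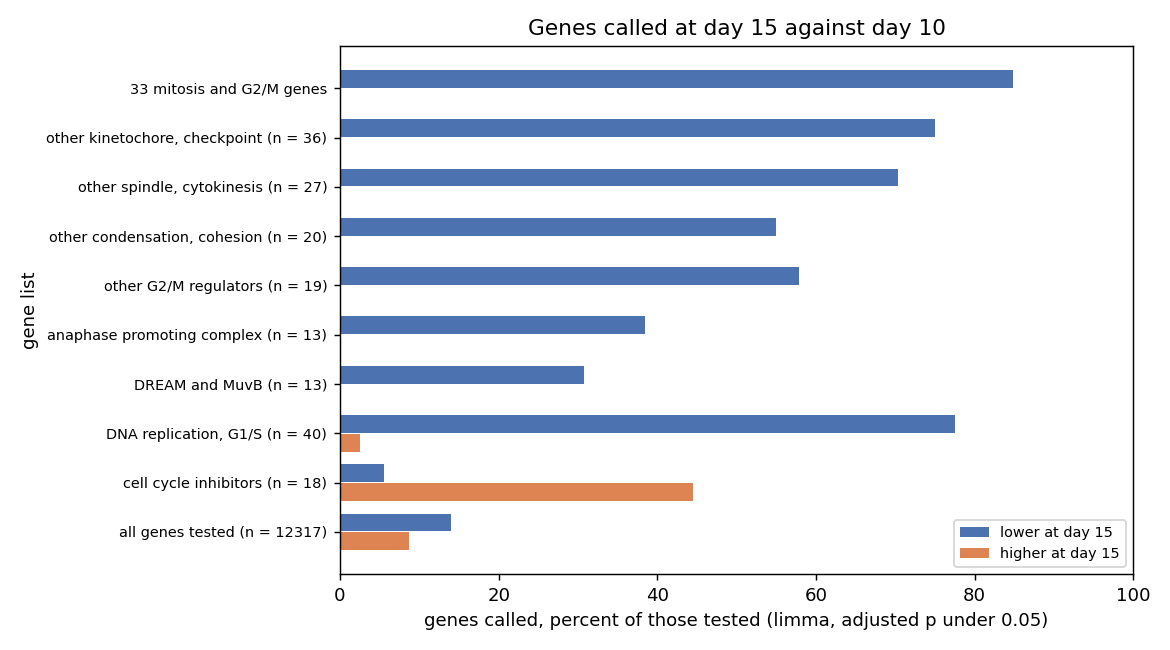
Genes called lower or higher at day 15 against day 10 (horizontal axis, percent of the tested genes of each list, limma adjusted p under 0.05) for the 33 genes, the wider lists and all 12317 genes. The 33 genes have 84.8% lower and 0 higher, and the cell cycle inhibitors are the list with more genes higher (8 of 18) than lower (1 of 18).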

How the data were processed

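Gene expression was measured in the spiky and the cystic HCA-7 clone at day 5, 10 and 15, with 1 array each. Per the labels' protocols, total RNA of the collagen layer with the cells was turned into biotinylated cRNA. The authors deposited log2 values, and the submitters' processing notes name RMA as the tool. No version or setting of RMA is stated in these sources. Precision is limited by the number of arrays.

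Of 54675 probe sets 41097 had 1 gene symbol in the platform's table, 1801 several and 11777 none, and symbols were updated by gene ID to RefSeq (GRCh38.p14; 41043 matched). Each of 19775 genes was represented by its brightest single-symbol probe set, and the 12317 whose mean log2 reached 5 or more entered the tests. All 6 arrays were fitted in limma 3.58.1 (R 4.3.3) with culture day as a factor, which also serves as the replicate block, and clone, with variances moderated along the intensity trend. The model has 2 degrees of freedom for the residual spread. P-values are two-sided and were adjusted over all 12317 genes by Benjamini-Hochberg, with a threshold of 0.05. A model with a clone by day term gave the slope difference. Differences within a clone are descriptions without a test. Folds were computed as powers of 2 of the log2 differences.

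All 33 genes are named. From each wider list the rule allowed at most 2 genes per direction, those with the smallest p for day 15 against day 5, and all that passed among DREAM and MuvB subunits and cell cycle inhibitors. The genes and lists were chosen with earlier results of these data known. On simulated data with 200 of 12317 genes changed, log2 changes of 0.5, 1 and 2 were recovered in 6.27%, 48.2% and 97.6% for the late step. Far more genes passed in the real late step (1719 lower and 1067 higher), which loosens the Benjamini-Hochberg cut-off. These shares therefore do not carry over to the real data. Promoter windows were searched in Python 3.11.15, and figures were drawn with matplotlib 3.10.9. Other filters, probe set choices, scalings, variance settings, models and single arrays left out were tried. Samples were grouped by the labelled colony morphology and day, and no sample was left out.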

Additional observations from a re-analysis of the deposited data

Results flagged for a closer look

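In 4 genes the arrays of the clones moved in opposite directions from day 5 or day 10 to day 15. The 6 genes whose early step differed in sign between the clones are named above. These differences were not tested as such, since each is 1 array against 1 array. TOP2A at day 15 against day 10 differed by -0.18 in the spiky clone and 0.0154 in the cystic clone. CDC25C at day 15 against day 10 differed by 0.0542 in the spiky clone and -0.14 in the cystic clone. BUB1 at day 15 against day 5 differed by -0.22 in the spiky clone and 0.0564 in the cystic clone. CENPA at day 15 against day 5 differed by -0.37 in the spiky clone and 0.0752 in the cystic clone. The limma test of a different slope over all 3 days gave adjusted p-values of 0.891, 0.809, 0.770 and 0.801 for TOP2A, CDC25C, BUB1 and CENPA. No group had 4 arrays, so single arrays were not tested for standing apart.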

How the results depend on the processing

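No comparison reversed a passing gene under any alternative tried, and other filters, scalings and the robust variance setting left 21 to 26 genes lower at day 15 against day 5 (and TOP2A higher with cyclic loess) and 24 to 29 at day 15 against day 10. The counts below are of the 33 genes, and the cause of the shifts was not tested, beyond the lost arrays and degrees of freedom. Day 15 against day 5 (22) gave 12 without the clone as a term, and 4 to 25 with single arrays left out. Day 15 against day 10 (28) gave 18 with probe sets not ending in _x_at or _s_at (24 genes had one), 12 without the intensity trend, 2 without the clone as a term and 5 to 27 with single arrays left out. Day 10 against day 5 (0) gave 0 to 3 with single arrays left out. The late minus the early step (1) gave 0 without the filter, 2 with a mean of at least 6, 0 with the mean of probe sets, 2 with arrays centred on their medians, 0 without the trend, 2 with the robust prior, 0 without the clone and 0 to 15 with single arrays left out. Spiky against cystic (2) gave 1 without the filter, 1 with the mean of probe sets, 0 without the trend, 1 to 4 with single arrays left out, and 0 with no replicate block, that is without culture day. Centring arrays on their medians moved the median of all genes at day 15 against day 5 to -0.20, against -0.11 as deposited, and that of the 33 genes to -0.68, against -0.60. The slope difference gave 0 under every alternative run and could not be refitted with an array left out, as no degree of freedom would remain.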

Other observations

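The genes outside every list whose profile was most like the mean of the 33 over the 6 arrays were BAG2, GTF3C6, HENMT1, BCAS2 and TXN, with Pearson correlations of 0.997 to 0.998 among 5638 candidates. With 6 arrays that share culture days such values are a description. BAG2, a co-chaperone, had 9.70, 9.63 and 8.39 in the spiky clone and 9.54, 9.60 and 8.62 in the cystic clone at day 5, 10 and 15. Both day 15 arrays were well below the others. Within the 33 genes the profiles least like the mean of the rest were those of TOP2A (-0.08), CENPA (0.31), ECT2 (0.38), CDC25C (0.46) and BUB1 (0.52).

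After centring each gene, the median over the 33 genes was 0.22, 0.20 and -0.41 in the spiky clone and 0.19, 0.23 and -0.34 in the cystic clone at day 5, 10 and 15. The GAPDH 3′ to 5′ difference did not follow this order, with 0.60, 0.63 and 0.49 in the spiky clone and 0.65, 0.79 and 0.63 in the cystic clone.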
